A study of Arabidopsis thaliana with 8 samples.

Results

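The nuclear genes of the photosynthetic light reactions form one functional set, and 50 of them were followed here. They were taken by locus number and comprise the light-harvesting antenna genes of photosystem I (LHCA) and photosystem II (LHCB), the subunits of both photosystems (PSA and PSB), plastocyanin, ferredoxin and its reductase, the Rieske protein of the cytochrome b6f complex, and subunits of the plastid ATP synthase. Of the 50 genes, 46 appeared in at least 1 of the 2 deposited lists of m6A peaks, which together name 14304 genes.

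N6-methyladenosine (m6A) is a methyl mark on adenosines inside messenger RNA, set by a methyltransferase complex, read by YTH-domain proteins and removed by demethylases of the AlkB family. In Arabidopsis it is known mostly from the 3′ end of transcripts, near the stop codon. In the light reactions, antenna proteins pass excitation to the photosystems, photosystem II takes electrons from water, and the electrons travel through cytochrome b6f, plastocyanin, photosystem I and ferredoxin to NADP. The proton gradient built on the way drives the ATP synthase of the chloroplast. The genes described here sit in the nucleus and their proteins are imported into the plastid.

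Whole seedlings of Arabidopsis thaliana ecotype Columbia-0 aged 14 days were used, either wild type or atalkbh10b -/-, carrying atalkbh10b-1, a mutation in the m6A demethylase gene ALKBH10B. Each genotype has 2 pull-down libraries, made with an antibody against m6A from fragmented poly(A) RNA, and 2 input libraries without pull-down, 8 in all, labelled as biological replicates. The values are the authors' log2 enrichments, 1 per peak and replicate, and n = 2 stands behind every mean ± SD below. Such an enrichment does not tell how much of a transcript was present, and library depth is unknown from these values.

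As a check of the labels, ALKBH10B (AT4G02940) itself had 2 peaks in the wild-type list and 2 in the mutant list, which shows its RNA in both genotypes and does not test the mutation. Of 7 root marker genes examined, 3 had peaks in both lists, 2 in wild type alone and 2 in the mutant alone. Of 4 shoot meristem markers, KNAT1 had peaks in wild type and STM, WUS and CLV3 had none in either list.

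Listed peaks in the light-reaction genes were nearly the same set in both genotypes. Peaks were listed in both genotypes for 44 of the 50 genes, in wild type alone for LHCB1.2, in the mutant alone for LHCB2.3 and in neither list for LHCB1.1, PSAN, PSBQ1 and PSBX. Genes in both lists were 95.7% of the light-reaction genes listed at all, against 77.4% of all listed genes, with 13% of all listed genes in wild type alone and 9.54% in the mutant alone. Every gene of the photosystem I antenna, the minor photosystem II antenna, the electron transport chain and the ATP synthase was in both lists. A gene without a peak may have been unmethylated, scarce or short of the authors' threshold, and these cannot be told apart here.

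The 50 genes held 59 peaks in wild type and 58 in the mutant, with at most 2 in a gene. In wild type 31 of the 45 genes with peaks had only 1 (68.9%, against 60.2% of all genes), and in the mutant 32 of 45 (71.1%, against 57.5%). Peaks had a median width of 158 bases in wild type and 159 in the mutant, beside 157 in both full lists, and ran from 100 to 274 bases. By position, 53 pairs of overlapping peaks matched between the lists, in 44 genes.

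Where the peaks lay differed from the lists as a whole. Peaks beginning within the first 200 bases of the gene model, as the lists count positions, were 27 of 59 in wild type (45.8%) and 24 of 58 in the mutant (41.4%), against 13% and 12.7% of all peaks. No peak of these genes began between bases 172 and 319, and the limit of 200 bases was set inside that gap after the positions had been seen. The genes' peaks also ended early in general. The most downstream peak of a gene ended at a median of 898 bases in wild type and 901 in the mutant, against 1468 and 1453 over all genes, and the part that transcript length plays in the count of early peaks was not tested.

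**Figure D1:**
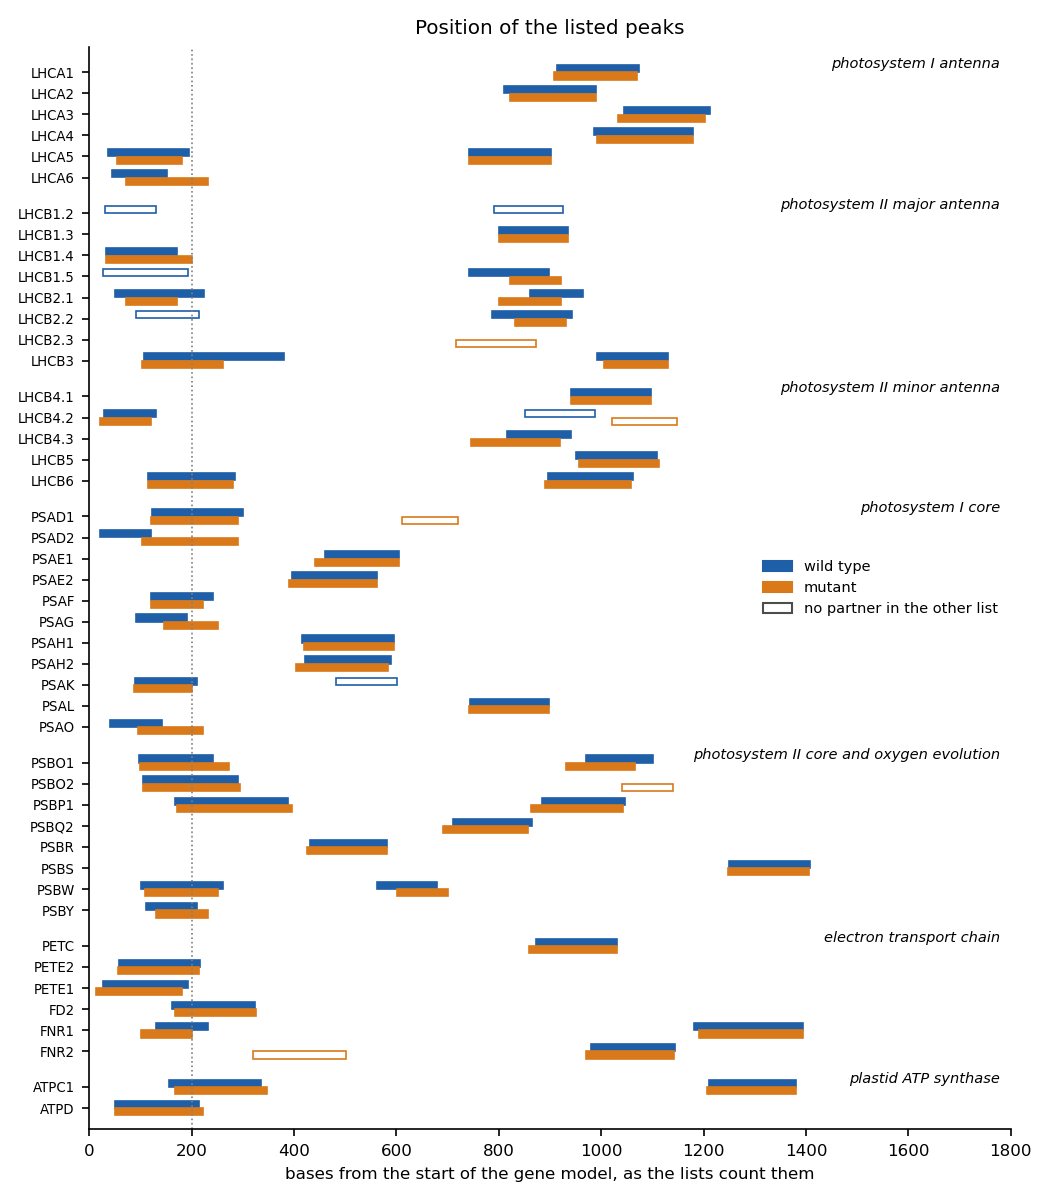
Position of every listed peak of the light-reaction genes, in bases from the start of the gene model (x axis), with wild type in blue above and the mutant in orange below for each gene; open bars have no partner in the other list and the dotted line marks base 200. Peaks fall into an early group and a downstream group, 106 of the 117 bars are filled, and the bars of both genotypes lie over each other in most genes.

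In wild type 13 genes had early peaks only, 18 had downstream peaks only and 14 had both kinds, and in the mutant the numbers were 12, 21 and 12. Both kinds occurred within most families, with 5 early only, 5 downstream only and 1 of both among photosystem I core genes in wild type, and 2, 3 and 3 among photosystem II core genes. LHCA1, LHCA2, LHCA3 and LHCA4, which form the antenna belt of photosystem I, each had a single downstream peak that began between bases 811 and 1045 in wild type. LHCA6, a minor antenna protein that links photosystem I to the NDH complex, had an early peak alone, and LHCA5, which acts in the same link, had 1 of each. Plastocyanin (PETE1 and PETE2) and ferredoxin (FD2), the mobile electron carriers, had early peaks alone, as did PSAD2, PSAF, PSAG and PSAO of photosystem I. PETC, the Rieske protein, had a downstream peak alone, at bases 872 to 1030 in wild type.

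Some paralogous genes carried a peak at a similar place and others did not. Both PSAE genes, for a stromal subunit of photosystem I, had it near the middle of the range, at bases 461 to 603 (PSAE1) and 395 to 561 (PSAE2) in wild type. PSAH1 and PSAH2, for the subunit at which the mobile antenna docks, had peaks at bases 415 to 594 and 422 to 588. PSBO1 and PSBO2, which stabilise the manganese cluster of water oxidation, shared an early peak, at bases 97 to 240 and 105 to 290 in wild type. There PSBO2 lacked the downstream peak of PSBO1. In the mutant PSBO2 had a downstream peak, at bases 1041 to 1140, beside 931 to 1066 in PSBO1. PSAD1 and PSAD2 had early peaks that did not overlap in wild type, at bases 122 to 299 and 21 to 120. In the mutant their early peaks did overlap, at bases 121 to 289 and 103 to 290. LHCB4.2 had an early peak that LHCB4.1 and LHCB4.3 lacked. Reads of close paralogs can be split or shared in mapping, so a like position in copies of like sequence is not independent evidence. FNR1 and FNR2, the reductases that pass electrons from ferredoxin to NADP, both had a downstream peak, and the early peak of FNR1 had no counterpart within the first 200 bases of FNR2.

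Enrichment at these peaks was modest and even. Over the 53 pairs the median log2 enrichment was 1.45 (wild type) and 1.42 (mutant), against 2.62 and 2.57 over all 13875 pairs. Genotype means ran from 0.72 to 4.01 in wild type and from 0.63 to 6.08 in the mutant. Downstream peaks had higher values than early ones, with medians of 1.92 and 1.85 over 29 pairs against 1.28 and 1.23 over 24 pairs. Not every family had this order. In electron transport genes the wild-type medians were 1.83 early and 1.51 downstream, in ATP synthase genes the early medians were 1.71 and 1.74 against 1.23 and 1.17, and in major antenna genes the mutant medians were 1.36 early and 1.23 downstream. The order of the whole set held over all pairs, with 2.78 and 2.70 for 12257 downstream pairs against 1.71 and 1.82 for 1445 early ones.

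The photosystem I antenna genes had a median enrichment of 2.32 (wild type) and 2.3 (mutant) over 7 peaks. LHCA1 (AT3G54890) had 2.95 and 2.51 in the wild-type replicates and 2.44 and 2.15 in the mutant replicates. Both mutant values lay below both wild-type values, and the difference of -0.44 was smaller than its standard error of 0.90. LHCA3 (AT1G61520) had 2.09 and 1.87 in wild type and 2.2 and 2.14 in the mutant, with the mutant values both above, by 0.19 on average. LHCA2 and LHCA4 had means of 2.37 ± 0.08 and 2.32 ± 0.47 in wild type and 2.51 ± 0.24 and 2.61 ± 0.49 in the mutant, with overlapping values. These 4 main belt genes thus stayed between 1.87 and 2.95 in all 16 measurements.

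LHCA5 (AT1G45474) held the highest peak of this family. Its downstream peak, with identical borders in both lists, at bases 742 to 901, had 3.74 and 4.01 in wild type and 4.27 and 2.67 in the mutant. The early peak had 3.0 and 0.72 in wild type and 1.15 and 0.86 in the mutant, a mean difference of -0.85 that came from the first wild-type replicate and became 0.29 without it. LHCA6 had 1.02 and 0.96 against 1.32 and 0.74, among the lowest values of all.

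The major antenna of photosystem II is a trimer of LHCB1, LHCB2 and LHCB3 proteins. Its genes held 4 of the 6 wild-type peaks without a partner, out of 12 (33.3%, against 30.6% of all wild-type peaks). In the mutant 1 of 9 had none (11.1%, against 30.7%). They also held 3 of the 5 pairs whose genotype means stood 1.5-fold or more apart. The other 5 of their 8 pairs were closer (62.5%, against 35.5% of all pairs). LHCB1 and LHCB2 are families of near-identical copies, so the gene to which a read was assigned is uncertain there. LHCB1.3 (AT1G29930) had a peak at bases 801 to 934 in both lists, with 1.06 and 1.09 in wild type and 1.15 and 1.31 in the mutant. LHCB1.1 (AT1G29920), whose locus number lies between those of LHCB1.2 and LHCB1.3, had no peak in either list. LHCB1.2 (AT1G29910) was listed at bases 791 to 925 in wild type alone, with 0.66 and 1.15, and at bases 31 to 130, with 0.54 and 1.00. Both LHCB1.2 peaks were thus low in wild type itself.

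LHCB1.4 (AT2G34430) had an early peak with 1.12 and 1.54 in wild type and 1.79 and 1.08 in the mutant. LHCB1.5 (AT2G34420) had a downstream pair with 1.19 and 0.76 against 0.38 and 1.01, and an early peak, with 0.69 and 1.45, listed in wild type alone. In LHCB1.4 and LHCB1.5 the replicates of the genotypes overlapped at every shared peak.

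LHCB2.1 (AT2G05100) gave the least repeatable early peak of wild type, with 2.80 in one replicate and -0.35 in the other, beside 0.09 and 1.17 in the mutant. Its mean difference of -0.60 became 0.97 without the first wild-type replicate. The downstream peak of LHCB2.1 had 1.56 and 1.73 against 0.74 and 1.47, so both mutant values were lower, by 0.54 on average. LHCB2.2 (AT2G05070) had 1.94 and 2.87 against 1.85 and 4.35 downstream, a difference of 0.70 that became -0.55 without the second mutant replicate. An early LHCB2.2 peak, with 1.15 and 1.21, was listed in wild type alone, and LHCB2.3 (AT3G27690) had a peak in the mutant alone, with 0.68 and 7.11. That peak of LHCB2.3 passed a log2 enrichment of 1 in only 1 of the replicates used.

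LHCB3 (AT5G54270), a single gene, held the highest enrichment of the set. At its downstream peak the replicates had 5.05 and 2.97 in wild type and 8.92 and 3.23 in the mutant, with means of 4.01 ± 1.47 and 6.08 ± 4.02. The difference of 2.07 was the widest of the 53 pairs, with a standard error of 2.28, and it rested on the first mutant replicate, without which it was -0.78. Its early peak had 1.61 and 1.1 against 1.23 and 1.5, a mean difference of 0.01.

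Genes of the minor antenna proteins, which bind between the trimers and the photosystem II core, had closer genotype means. LHCB4.1 (AT5G01530, also known as CP29) had a peak at bases 941 to 1096 in both lists, with 3.75 and 4.2 in wild type and 3.60 and 3.81 in the mutant, the second highest of the set. LHCB4.3, a CP29 isoform, had 1.70 and 2.54 against 1.84 and 2.72. LHCB4.2 (AT3G08940) stood apart from both: its shared early peak had 1.05 and 0.38 against 1.07 and 0.81. Averaged over both genotypes, LHCB4.2 thus had the lowest pair of all. Its downstream peaks did not overlap between the lists, at bases 851 to 986 in wild type (1.22 and -0.06) and 1021 to 1147 in the mutant (1.34 and -1.43), and each rested on 1 replicate. LHCB5 (CP26) had 1.43 ± 0.18 against 1.32 ± 0.21. LHCB6 (CP24) had 2.26 and 2.19 against 2.35 and 2.95 downstream, with both mutant values higher, by 0.43 on average, and 1.00 ± 0.93 against 1.15 ± 0.34 at its early peak.

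**Figure D2:**
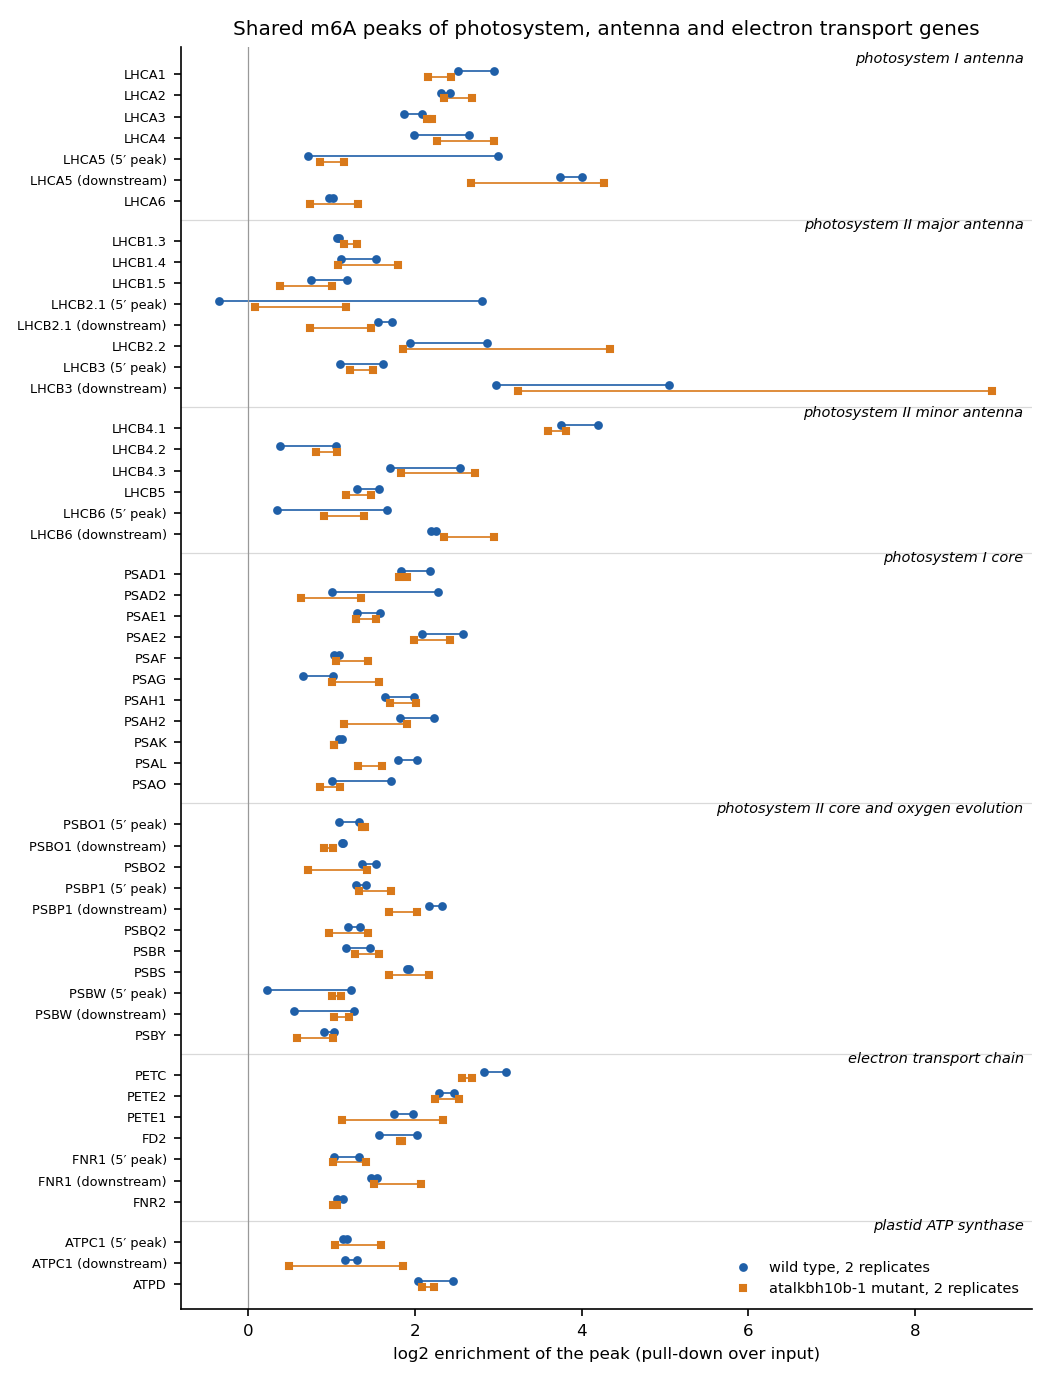
Log2 enrichment (x axis) of the 53 shared peaks of the light-reaction genes in each replicate, grouped by complex, with wild type as blue circles and the mutant as orange squares joined by a line between the 2 replicates. Most points lie between 0.5 and 3 with close replicates, and the long lines belong to LHCA5, LHCB2.1, LHCB2.2 and LHCB3.

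Photosystem I core genes had medians of 1.65 (wild type) and 1.42 (mutant) over 11 peaks, with 3 mutant means above and 8 below wild type. Over all 13875 pairs 6827 mutant means were above and 7048 below. The replicates of the genotypes did not overlap at 18.2% of the 11 pairs, against 28.7% of all pairs. The highest was PSAE2 (AT2G20260), with 2.08 and 2.58 in wild type and 1.99 and 2.42 in the mutant, above its paralog PSAE1 with 1.3 and 1.58 against 1.54 and 1.29. PSAH1 had 1.81 ± 0.25 against 1.85 ± 0.22 and PSAH2 had 2.02 ± 0.29 against 1.53 ± 0.54. PSAD1, for the ferredoxin-docking subunit, had 1.83 and 2.18 against 1.91 and 1.81. PSAD2 (AT1G03130) had 1.01 and 2.28 against 1.35 and 0.63, a difference of -0.66, but its peaks at bases 21 to 120 and 103 to 290 shared only 18 bases and may not be the same site.

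Both mutant values were below both wild-type values at PSAL (AT4G12800), another subunit at the docking side of the mobile antenna, with 2.03 and 1.79 against 1.32 and 1.60. The same held for PSAK (AT1G30380), with 1.09 and 1.13 against 1.03 and 1.03, a separation of only 0.08 between means. PSAF, the docking subunit for plastocyanin, had 1.06 ± 0.04 against 1.25 ± 0.27. PSAG and PSAO had 0.83 ± 0.25 and 1.35 ± 0.50 in wild type against 1.29 ± 0.40 and 0.98 ± 0.17, at peaks whose borders overlapped in part. Further peaks were listed at bases 481 to 601 of PSAK in wild type (1.17 and 0.85) and at bases 611 to 720 of PSAD1 in the mutant (1.17 and 0.77).

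All 11 peaks of photosystem II core and oxygen-evolving genes were within 1.5-fold between genotypes. PSBS (AT1G44575), which triggers the dissipation of excess light as heat, had the most downstream peak, at bases 1249 to 1407 in wild type, with 1.91 and 1.93 against 1.69 and 2.17. PSBP1 (AT1G06680), an extrinsic subunit of the oxygen-evolving complex, had 2.33 and 2.17 against 2.02 and 1.69 at its downstream peak, with both mutant values lower, and 1.35 ± 0.09 against 1.52 ± 0.27 at its early peak. PSBO1 (AT5G66570) showed no overlap of the genotypes at either peak, in opposite directions. The early peak of PSBO1 had 1.09 and 1.33 against 1.36 and 1.4, and the downstream one 1.12 and 1.14 against 0.91 and 1.02.

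PSBO2 had 1.36 and 1.54 against 1.42 and 0.71 at its early peak and a second peak in the mutant alone, at bases 1041 to 1140, with 1.63 and 0.59. PSBQ2, another extrinsic subunit, had 1.27 ± 0.10 against 1.21 ± 0.33 and PSBR had 1.32 ± 0.21 against 1.43 ± 0.21. Averaged over both genotypes, the peaks of the small membrane subunits PSBW and PSBY were the lowest of the family, while in the mutant alone the downstream peak of PSBO1, at 0.97 ± 0.07, lay below both PSBW peaks. PSBW (AT2G30570) had 0.23 and 1.23 against 1.11 and 1.01 early and 1.27 and 0.54 against 1.03 and 1.21 downstream, and PSBY (AT1G67740) had 0.91 and 1.03 against 0.59 and 1.02.

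Every shared peak of the electron transport genes reached a log2 enrichment of 1 in all 4 replicates, 7 of 7, where 36 of the 53 pairs did so (67.9%, against 57.8% of all pairs). PETC (AT4G03280) was highest, with 3.09 and 2.82 in wild type and 2.56 and 2.69 in the mutant, both mutant values below. The plastocyanin genes followed with 2.29 and 2.47 against 2.53 and 2.25 for PETE2 (AT1G20340) and 1.75 and 1.98 against 2.33 and 1.12 for PETE1. FD2 (AT1G60950), the main leaf ferredoxin, had 1.57 and 2.03 against 1.84 and 1.82. Values of the genotypes overlapped at all 3 of these carriers.

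FNR1 (AT5G66190) had 1.02 and 1.33 against 1.01 and 1.42 early and 1.55 and 1.47 against 1.5 and 2.08 downstream. FNR2 (AT1G20020) had 1.06 and 1.14 against 1.06 and 1.01 at its shared peak, with a difference between means of -0.06. A peak at bases 319 to 500 of FNR2, with 1.25 and 1.4, was listed in the mutant alone. Of the ATP synthase, ATPD (the delta subunit) had 2.04 and 2.46 against 2.08 and 2.23. ATPC1 (the gamma subunit) had 1.19 and 1.14 against 1.59 and 1.04 early and 1.31 and 1.16 against 0.49 and 1.86 downstream.

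Against this background, the comparison of genotypes asked whether the atalkbh10b-1 mutation went with a different enrichment at these peaks. With limma's moderated test over all 13875 pairs and Benjamini-Hochberg adjustment, 0 of the 53 pairs passed at 0.05, as did 0% of all pairs, the smallest adjusted p being 0.9996. At an unadjusted p under 0.05 stood 0 of the 53 and 491 of all pairs (3.54%). The smallest unadjusted p of the set was 0.413, at the downstream peak of LHCB3. Standard errors in this fit had a median of 0.90 for the set and 1.25 for all pairs. The fit draws each pair's spread toward that of all pairs, and the smallest standard error was 0.88, both in the set and over all pairs. At FNR2, for instance, the 95% interval of the difference ran from -2.46 to 2.34, so a test that did not pass does not show equal methylation.

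Measured without a test, 48 of the 53 pairs (90.6%) had genotype means less than 1.5-fold apart, against 35.5% of all pairs. The mutant mean was at least 1.5-fold higher at 2 pairs (LHCB3 and LHCB2.2, both downstream; 32.4% of all pairs) and at least 1.5-fold lower at 3 (LHCA5 and LHCB2.1, both early, and PSAD2; 32.1% of all pairs). For 4 of these 5 the sign turned when 1 replicate was left out. The exception, PSAD2, went from -0.66 to -0.02 without the second wild-type replicate. Signs were balanced, with 27 mutant means above and 26 below wild type, and the median difference was 0.01, beside -0.02 over all pairs.

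The replicates of the genotypes did not overlap at 22.6% of the pairs, against 28.7% of all pairs. The mutant was the higher genotype at 4 of them (LHCA3, LHCB6 downstream, PSBO1 early and LHCB1.3; 13.7% of all pairs) and the lower one at 8 (15% of all pairs). At these 12 pairs the genotype means differed by 0.06 to 0.54 on the log2 scale. The difference was below -0.3 at LHCA1, PETC, PSAL, PSBP1 downstream and LHCB2.1 downstream and closer to 0 at PSAK, FNR2 and PSBO1 downstream.

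**Figure D3:**
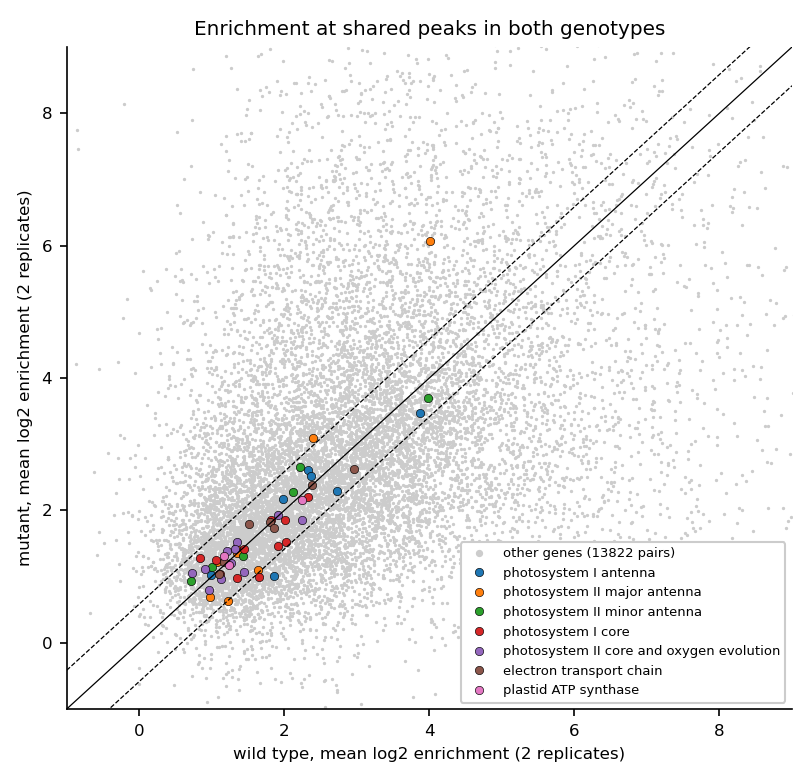
Mean log2 enrichment over 2 replicates at each shared peak in wild type (x axis) and mutant (y axis), with light-reaction genes coloured by complex and all other pairs in grey; the solid line marks equal values and the dashed lines a 1.5-fold difference, and 207 pairs lie beyond the axes. Of the coloured points, 48 of 53 lie between the dashed lines, and LHCB3 lies farthest above them.

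Replicates of these genes were close to each other as well. The absolute difference between replicates had a median of 0.28 (wild type) and 0.38 (mutant), against 1.26 and 1.60 over all pairs. It was under 1 at 47 of the 53 pairs in wild type and at 47 in the mutant (88.7% each), against 42% and 35% of all pairs. By family the wild-type median ran from 0.15 in photosystem II core and ATP synthase genes to 0.56 in minor antenna genes, and the mutant median from 0.29 in electron transport to 0.72 in major antenna genes. Across the 53 pairs the replicates correlated with Pearson's r of 0.61 (wild type) and 0.59 (mutant), and the genotype means with 0.89 (0.91 without the LHCB3 downstream peak). Over all 13875 pairs these values were 0.25, 0.15 and 0.44. They are descriptions across peaks that share the same libraries.

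**Figure D4:**
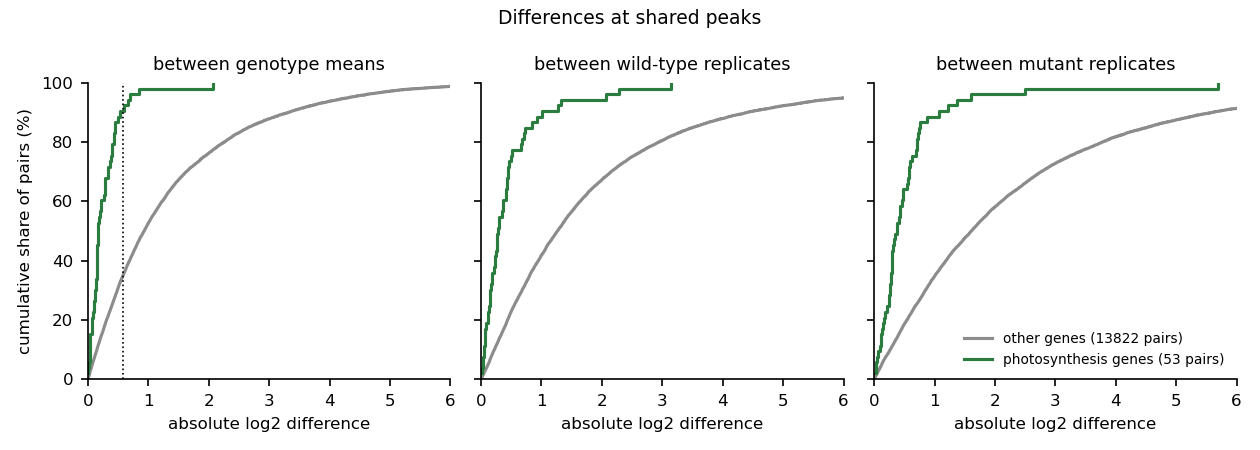
Cumulative share of shared pairs (y axis, %) by absolute log2 difference (x axis), between genotype means (left, dotted line at 1.5-fold) and between the replicates of wild type (middle) and of the mutant (right), for the 53 light-reaction pairs in green and 13822 other pairs in grey. The green curves climb sooner in all 3 panels, with medians of 0.17, 0.28 and 0.38 against 0.93, 1.26 and 1.61.

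Close genotype means go with low enrichment in these lists, so the pairs were also read within bands of mean enrichment. Among pairs with a mean between 1 and 2, 31 of 33 light-reaction pairs were within 1.5-fold (93.9%), against 51.7% of 3538 other pairs. Between 2 and 3 it was 11 of 12 (91.7%) against 36% of 3497. Between 3 and 5 it was 2 of 2, LHCB4.1 and LHCA5 downstream, against 24.4% of 4506, and the single pair above 5, LHCB3, was not within 1.5-fold. The median replicate difference between 1 and 2 was 0.24 (wild type) and 0.38 (mutant) for the light-reaction genes, and 0.84 and 1.07 for others. Under 1 it was larger, at 0.67 and 0.43 over 5 light-reaction pairs and 1.28 and 1.61 for others. Transcript abundance and read depth were not available, and their part in the closeness was not tested.

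**Figure D5:**
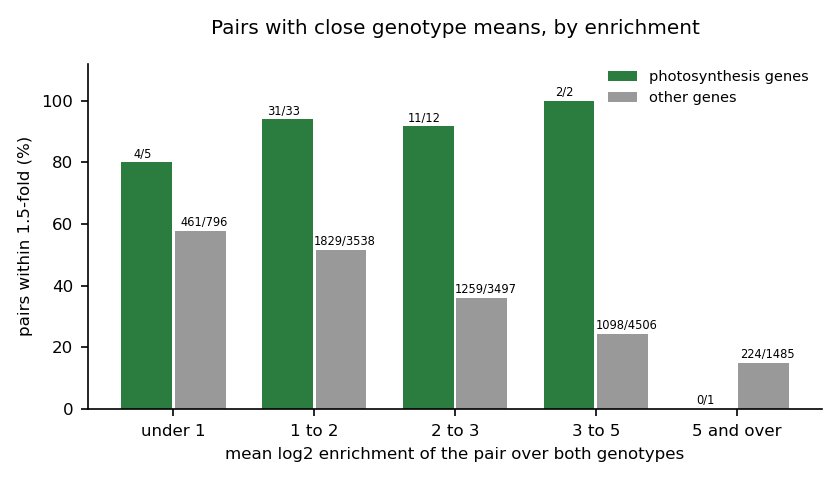
Share of shared pairs with genotype means within 1.5-fold (y axis, %) by band of mean log2 enrichment (x axis), for light-reaction genes in green and other genes in grey, with the counts above each bar. The green bars stand at 80% to 100% up to a mean of 5 and the grey bars decline from 57.9% to 15.1%.

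The borders of the peaks were likewise close in both lists. Starts of paired peaks differed by a median of 8 bases and ends by 7, against 25 and 20 over all pairs, and 29 of 53 starts lay within 10 bases of each other (54.7%, against 29.1%). Paired peaks shared a median of 88.8% of their joint span, against 73.1%. LHCB4.1, LHCA5 downstream and LHCB1.3 had the same borders to the base in both lists. PSAD2, PSAO and PSAG, with 6.67%, 26.1% and 28.8% of the span shared, were the least alike, all among early peaks of photosystem I.

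Without a partner were 6 of 59 wild-type peaks (10.2%, against 30.6% of all) and 5 of 58 mutant peaks (8.62%, against 30.7%). These 11 peaks became 21 when partners had to overlap by a share of 0.5 of both peaks. Of these 11 peaks, 2 reached a log2 enrichment of 1 in both replicates, those of LHCB2.2 in wild type and FNR2 in the mutant. In the full lists 52.1% and 52.2% of peaks without a partner did so. With 1 list per genotype, the gain or loss of a peak has no replicate check.

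Of 29 further genes of the light reactions, their assembly and their regulation, 28 were in both lists and none in 1 alone. Of their 36 pairs, 24 were within 1.5-fold (66.7%, against 35.5% of all pairs). At least 1.5-fold higher in the mutant were 3 (32.4% of all pairs), and 9 were lower (32.1% of all pairs). With limma's adjusted p 0 passed (0% of all pairs), and 0 had an unadjusted p under 0.05 (3.54% of all pairs). The widest were LHCB7 (AT1G76570), a rare antenna-like gene, with 6.13 ± 4.34 in wild type against 8.36 ± 6.83, and ABA1 (AT5G67030), the zeaxanthin epoxidase gene, with 3.19 ± 2.65 against 0.73 ± 0.75 at its peak from base 381. LPA1 (AT1G02910), a photosystem II assembly factor, had 5.52 and 4.64 against 3.71 and 3.77, both mutant values lower. DEG1 (AT3G27925), a lumen protease, had a pair of each sign, at 1.81 ± 0.50 against 2.84 ± 0.85 early and 4.24 ± 0.41 against 3.0 ± 0.67 downstream. The mutant replicates lay wholly below the wild-type ones at 13 of the 36 pairs (15% of all pairs) and wholly above at 3 (13.7%). Whether this list differs from the photosystem genes was not tested.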

How the data were processed

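The authors deposited 1 peak list per genotype with, per the file headers, a log2 enrichment for each of 3 replicates. The labels hold samples for 2 of them, and the 2 value columns of the third matched no sample and were not used. The build TAIR10, edgeR and TopHat2 2.0.14 are named, with no role given, per the submitters' processing notes. Not given in the sources used here are the peak caller, its thresholds, the enrichment formula, the library scaling and whether positions count introns. Reads without a unique gene could have been handled in ways that affect gene copies.

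No pseudocount or rescaling was applied to the deposited log2 enrichments. Peaks of the same gene that overlapped by at least 1 base were partners, and pairs in which each was the other's largest overlap gave 13875 pairs. Genotypes were compared over all pairs with limma 3.58.1 in R 4.3.3, without a replicate block, with Benjamini-Hochberg adjustment at 0.05. An exact permutation test of 2 against 2 cannot go below p = 0.333 and was not used. Ratios of 1.5 between genotype means were counted. Nothing says that replicates were grown apart, so p-values measure the spread between these libraries.

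The members, the gene lists (72 further genes) and the rules were chosen with earlier results of these data known. Every member was accounted for. Replicate values were to be given for genes or peaks in 1 list, pairs 1.5-fold apart, the 6 highest and 6 lowest, the 4 smallest p and the highest of each family, and up to 4 genes of each further list. A gene table (assembly TAIR10.1) gave names for all 50 members and gene overlaps, and none of its coordinates are printed. Of the members, 18 overlap another gene there, and whether counting used strand is unknown. Sequences and codon positions were not analysed here. Alternatives were a larger overlap, stricter enrichment, centring, a replicate block, a variance trend, a ratio of 2, gene means and leaving out each replicate. Leaving out near-identical copies by protein identity was replaced by leaving out LHCB1 and LHCB2. Computation used Python 3.11.15, numpy 2.4.6, pandas 2.3.3 and matplotlib 3.10.9.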

Additional observations from a re-analysis of the deposited data

How the results depend on the processing

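No pair of any gene passed limma's adjusted threshold in any alternative, including the replicate block, which called 0 of all pairs and 0 of the 53 (567 of all pairs at an unadjusted p under 0.05, in place of 491, and 0 of the 53). The replicate numbers were not shown to pair the samples: the deviations of same-numbered replicates had a Pearson's r of 0.01 over all pairs and 0.21 over the 53, where Spearman's rho was -0.14. Pairs of all genes at an unadjusted p under 0.05 were 309 with a variance trend, 1215 without the first and 1016 without the second mutant replicate. The smallest adjusted p ranged from 0.453 to 0.9998 over the alternatives. Without the second mutant replicate, where the remaining one is assumed to vary like the wild-type ones, the LHCB3 downstream peak had an unadjusted p of 0.0364 (adjusted p = 0.635). With 1 replicate left out, between 41 and 47 of the 53 pairs, not always the same ones, were within 1.5-fold (27.3% to 31.2% of other pairs) and gave a median difference between -0.10 and 0.02. At a ratio of 2 it was 52 of 53, with centring 50 and with gene means 39 of 44. Members overlapping no other gene, an alternative chosen after seeing the data, had 30 of 32 within 1.5-fold, fewer in number because 32 pairs were counted. Peaks without a partner were 21 in place of 11 when a share of 0.5 of both peaks had to overlap, and were 2 among the 84 peaks with a log2 enrichment of 1 in both replicates. The cause was not tested beyond these definitions. Requiring such a peak in each list left 33 genes in both. The alternative based on protein identity was not run. In its place, leaving out LHCB1 and LHCB2, which was not planned, gave 44 of 47 pairs within 1.5-fold and a median difference of 0.01. Depth is unknown, and 2 replicates per genotype limit every comparison.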

Other observations

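Genes of chlorophyll synthesis and of the Calvin cycle, which supply pigment to the antenna and use the NADPH and ATP of the light reactions, also had shared peaks, with median log2 enrichments of 2.12 and 2.39 (wild type and mutant) for chlorophyll genes and 1.81 and 1.69 for Calvin cycle genes. Of 14 chlorophyll genes and regulators, 11 were in both lists, GLK2 in wild type alone, and PORA and PORB in neither. Of their 19 pairs, 16 were within 1.5-fold (84.2%, against 35.5% of all pairs). With limma's adjusted p 0 passed (0% of all pairs), and 0 had an unadjusted p under 0.05 (3.54% of all pairs). CHLG (AT3G51820), the chlorophyll synthase gene, had 2.39 and 3.49 in wild type and 4.19 and 4.05 in the mutant at its downstream peak, both mutant values higher. GUN5 (AT5G13630), a subunit of magnesium chelatase, had 2.04 and 2.19 against 2.89 and 2.46 at its early peak and 3.79 and 4.23 against 3.16 and 3.41 at its last one, where both mutant values were lower.

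Of 18 Calvin cycle genes, 14 were in both lists and 2, RCA and GAPA-2, in wild type alone. Of their 19 pairs 17 were within 1.5-fold (89.5%, against 35.5% of all pairs). With limma's adjusted p 0 passed (0% of all pairs), and 0 had an unadjusted p under 0.05 (3.54% of all pairs). The median replicate differences were 0.28 and 0.30, near those of the photosystem genes. The Rubisco small-subunit gene RBCS1A had 1.09 ± 0.11 against 1.06 ± 0.04. The exceptions were FBA1 (AT2G21330), a plastid aldolase, with 2.55 and 3.49 against 1.39 and 1.89, and RPE (AT5G61410), with 2.53 and 2.98 against 1.74 and 2.11. In both of these genes each mutant value was below each wild-type value. Early peaks were 42.9% of Calvin cycle peaks in wild type and 36.4% in the mutant. Such close values were thus also measured in a neighbouring pathway, and no difference between the groups was tested.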
